A study of Mus musculus with 12 samples.

Results

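Clone M tumour cells are the cells annotated as tumour by the authors in the Total library of the Clone M tumour. They numbered 4845 of the 13467 cells in that library (36.0%), of 19935 annotated tumour cells in the 6 Total libraries and of 115612 cells in the series. After 252 of them had been called doublets, 4593 cells with 63744007 unique molecular identifiers (UMIs, 1 per captured RNA molecule) were described. The study implanted mouse 4T1 mammary carcinoma cells in the mammary fat pad of female BALB/c mice aged 9 to 11 weeks. The groups were Clone E, Clone EM1, Clone EM2, Clone EM3 and Clone M, each grown from a single cell of the line, and Parental 4T1, the uncloned line. No treatment or allele is named for any group, and the design describes the clones as spanning epithelial to mesenchymal states without saying which clone is which. Each group had 1 tumour, so there was no replicate, no test between groups was made, and a difference between clones cannot be told apart from one between single tumours or mice. All intervals are 95% intervals and cover counting error only.

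The 4T1 line models triple-negative breast cancer in mice with an intact immune system. In the epithelial to mesenchymal transition, carcinoma cells lose adherens junctions, desmosomes, tight junctions and keratins and gain vimentin and matrix proteins. Transcription factors such as Snai1, Twist1 and Zeb2 repress the epithelial genes, and many carcinomas hold cells in between both states. A mesenchymal clone of a carcinoma is therefore usually recognised by what it has lost as well as by what it has gained.

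Levels are given as CPM, the UMIs of a gene scaled by all UMIs summed over the tumour cells of 1 tumour, and ratios as ratios of CPM + 10, which understate changes of low genes. The tumour cells of the other groups held 751 cells in Clone E and 1933 to 5923 in the rest, with median depths of 6390 UMIs per cell in Clone E, 9665 to 15213 in the other tumours and 13144 in Clone M. By the first 16 bases of the cell barcodes, Clone M Total and Clone M CD45 shared 19.1% of the barcodes of the smaller library of the pair. With each other library the share of the smaller library was between 1.64% and 1.91%. A common capture is only inferred from such sharing, and captures and clones cannot be told apart for Clone M. Whole barcodes shared with Clone M Total numbered 189 in EM2 Total, 141 in EM3 Total and 0 in the others. The 14 macrophage markers summed to 311 CPM in the Clone M tumour cells against 304 to 1844 in the other tumours, of which Cd74 made up most in Clone E, EM1, EM2 and EM3. Without Cd74 the sum was 243 in Clone M against 123 in EM1, 162 in EM2, 228 in the parental tumour, 465 in EM3 and 696 in Clone E. The 9 granulocyte markers summed to 431 CPM against 132 to 806, and Clone M was second to Clone E. The 4 B cell markers (34.6 CPM against 6.70 to 29.8) and the 9 fibroblast markers (372 against 211 to 310.1) summed highest in Clone M. Without Pdgfra and Pdgfrb the fibroblast sum was 139.8 in Clone M against 57.0 to 274, below Clone E. The T and NK markers (26.5 against 11.1 to 79.5) and those of endothelium and pericytes (24.3 against 8.50 to 34.9) were second to Clone E. Under 1 CPM in Clone M were 5 of the 9 T and NK markers, 2 of the 4 B cell markers, 1 of the 9 fibroblast markers and 6 of the 9 endothelial and pericyte markers.

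The 4 genes that mark these cells did not behave alike across tumours. Vim, the intermediate filament of mesenchymal cells, had 19070.2 CPM in EM3, 16073 in EM2, 14017 in EM1, 13008 in the parental tumour, 4416 in Clone E and 13588 in Clone M. Sparc, a matrix glycoprotein, had 841 CPM in EM3, 727 in EM2, 914 in EM1, 455 in the parental tumour, 126 in Clone E and 863 in Clone M. Clone E was the lowest for both, EM1, EM2 and EM3 held more Vim than Clone M, and EM1 held more Sparc.

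Gpnmb and Cavin2 set Clone M apart from all 5 other tumours. Gpnmb, a transmembrane glycoprotein of lysosomes and melanosomes (chromosome 6, 49036546 to 49070929 in GRCm38), had 7.0 CPM in EM3, 3.32 in EM2, 14.8 in EM1, 11.3 in the parental tumour, 10.2 in Clone E and 135 in Clone M (interval 132 to 138). Its level in the macrophages of the same library, a cell type known for this gene, was 26.5 CPM. Cavin2, a coat protein of caveolae (chromosome 1, 51289126 to 51302960), had 31.2 CPM in EM3, 29.6 in EM2, 46.6 in EM1, 50.5 in the parental tumour, 4.21 in Clone E and 188 in Clone M, and in the library macrophages held 5.00 and endothelial cells 159. The 2 genes were 5.84-fold and 3.28-fold above the next highest tumour.

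With each cell thinned to 2000 UMIs, Gpnmb was seen in 22.6% of Clone M tumour cells (interval 21.4 to 23.8) and in 0.643% to 3.37% of those of the other tumours. The share was 3.87% in macrophages and 2.77% in T and NK cells of the library at the same depth. Cavin2 was seen in 27.1% of Clone M tumour cells (25.8 to 28.4), in 0.876% to 9.03% elsewhere and in 1.32% of the macrophages. Without thinning the shares in Clone M were 65.6% and 72.5%. Thinning left out 50 of 4593 Clone M tumour cells, 36 to 232 cells of each other tumour, 203 of 2864 macrophages and 677 of 1074 T and NK cells. It also left out 3306 of 3877 granulocytes, so the granulocyte shares given below cover only the 571 cells with the most UMIs.

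Across the genome, 24 of 4849 genes with at least 50 CPM in Clone M (0.495%) were at least 2-fold above every other tumour. The same count was 144 for Clone E, 18 for EM1, 4 for EM2, 1 for EM3 and 0 for the parental tumour, each set against its own 5 others. Snai1, Twist1 and Zeb2 were not among the 24. With TMM scaling, a composition-corrected scaling of the libraries, Egr2, Nfil3, Nrarp, Pdlim2 and Rflnb were no longer called, and with centring on the median ratio Egr2 and Spty2d1.

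Beside Gpnmb and Cavin2, the genes farthest above the next tumour were Csn3, Itih2, Dennd2a and Ctla2a. Csn3, the milk protein kappa-casein (chromosome 5, 87925579 to 87932665), had 2.38 CPM in EM3, 1.75 in EM2, 3.0 in EM1, 5.28 in the parental tumour, 7.61 in Clone E and 102 in Clone M (interval 99.1 to 104). Itih2, a heavy chain that attaches to hyaluronan (chromosome 2, 10094593 to 10131396), had 0.315 CPM in EM3, 0.497 in EM2, 11.7 in EM1, 0.328 in the parental tumour, 1.40 in Clone E and 104 in Clone M. Only Clone M was high for either gene, and it stood 6.33-fold and 5.25-fold above the next highest. Ctla2a, an inhibitor of cysteine proteases, had 114 CPM in EM3, 191 in EM2, 234 in EM1, 57.2 in the parental tumour, 46.3 in Clone E and 756 in Clone M, which was 3.13-fold above EM1, the next highest. T and NK cells of the library held 975 CPM of Ctla2a, endothelial cells 1684 and macrophages 39.0. The summed T and NK markers and endothelial markers of the tumour cells, 26.5 and 24.3 CPM as given above, were in Clone M also above those of every tumour but Clone E, and their part in the Ctla2a value was not tested.

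Has1, which makes hyaluronan, had 65.4 CPM in EM3, 24.9 in EM2, 30.4 in EM1, 16.9 in the parental tumour, 6.01 in Clone E and 165 in Clone M. Mcam, the adhesion molecule CD146, had 48.1 CPM in EM3, 56.2 in EM2, 83.9 in EM1, 51.0 in the parental tumour, 45.5 in Clone E and 214 in Clone M. P3h3, a collagen prolyl hydroxylase, reached 109 CPM in Clone M against 12.0 to 45.1 in the others, and Adamts9, a secreted metalloprotease, 69.5 CPM in Clone M against 13.4 to 24.2 in the others. F5, coagulation factor V, reached 56.5 CPM in Clone M against 0.801 to 14.6 in the others. After Clone M, EM3 held the most Has1, and EM1 the most Mcam and F5. In host cells of the Clone M library, Mcam was at 1076 CPM and Adamts9 at 398 in endothelial cells, Has1 at 736 and P3h3 at 246 in fibroblasts and F5 at 60.6 in granulocytes. Of the 24 genes, 16 had a host class of the library above the tumour cells, and 8 had none (Gpnmb, Cavin2, Csn3, Itih2, Opn3, Pdlim2, Spty2d1 and Rflnb). The share of all tested genes with such a host class was not computed, so 16 of 24 cannot be read as a trait of these genes. The part of host RNA in the values of the 16 genes was not tested.

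Fosl2, an AP-1 subunit also called Fra-2, had 294 CPM in EM3, 248 in EM2, 316 in EM1, 284 in the parental tumour, 215 in Clone E and 714 in Clone M. Nfil3, a basic leucine zipper factor, had 136 CPM in EM3, 166 in EM2, 145 in EM1, 127 in the parental tumour, 128 in Clone E and 370.1 in Clone M. Egr2, an early growth response factor, reached 77.9 CPM in Clone M against 20.4 to 33.1 in the others. For Fosl2 and Nfil3 the other 5 tumours lay close together, and Clone M alone stood 2.22-fold and 2.16-fold above the next. Of the remainder, Scarb2, a lysosomal membrane protein, reached 186 CPM in Clone M against 25.4 to 64.8 in the others, and Nrarp, a feedback regulator of Notch signalling, 69.4 CPM in Clone M against 18.0 to 28.2 in the others. Trp53i11 reached 609.7 CPM in Clone M against 48.9 to 218 in the others and Rflnb, a filamin-binding protein, 152 CPM in Clone M against 13.9 to 66.8 in the others. Arl4d, Dennd2a, Cxxc5, Man1c1, Opn3, Pdlim2 and Spty2d1 complete the set, with ratios to the next tumour of 2.11 for Spty2d1 to 3.94 for Dennd2a.

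**Figure D1:**
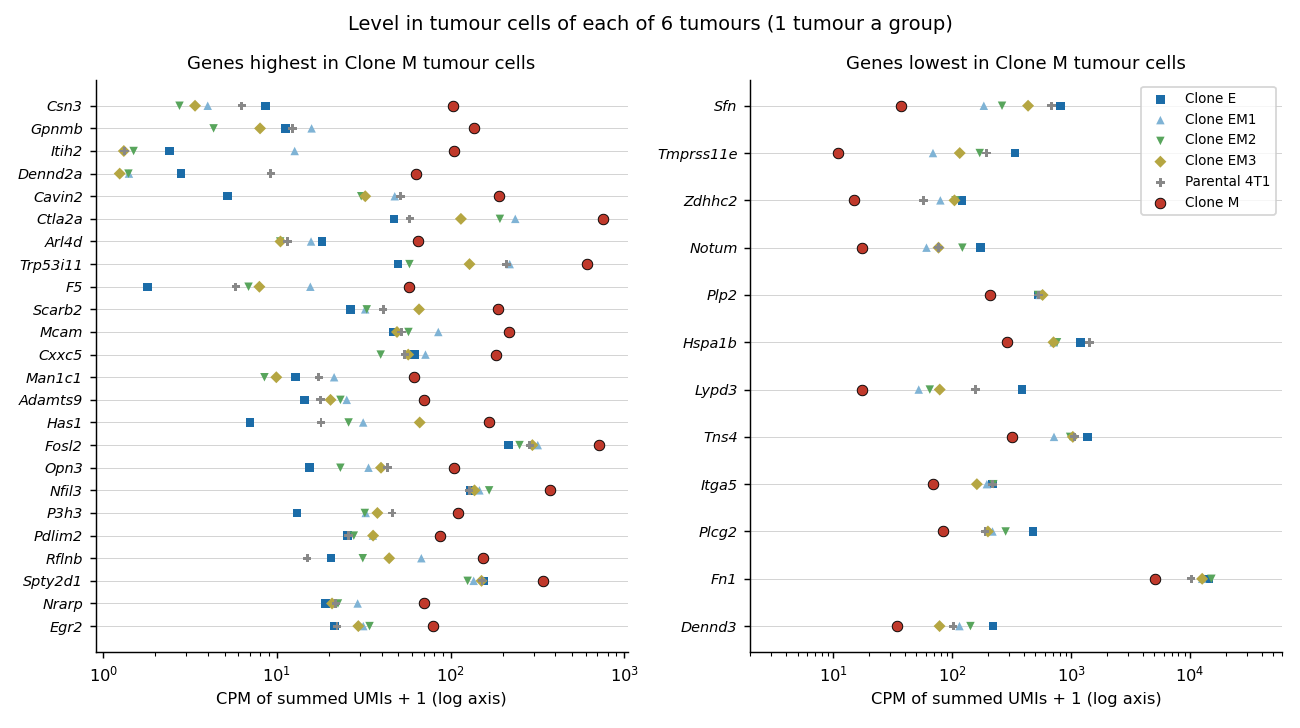
Each row is a gene, and each point is the level of the tumour cells of 1 tumour, as CPM of summed UMIs + 1 on a log axis. The left panel holds the 24 genes at least 2-fold above every other tumour and the right panel 12 of the 13 genes at least 2-fold below; Clone M is the red circle.

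A level at least 2-fold below every other tumour was found for 13 of 3914 genes with at least 50 CPM in all 5 others (0.332%). The same count was 37 for Clone E, 4 for EM3, 1 for EM2 and 0 for EM1 and the parental tumour. With TMM scaling Fn1 and Plp2 were among those no longer called, and Dennd3 was lost when doublet calls were ignored, when cells with a UMI of Ptprc were left out and when cells were weighted equally. Without the parental tumour among the others 20 genes were called. Sfn, the 14-3-3 sigma protein of epithelial cells (chromosome 4, 133600556 to 133602168), had 433 CPM in EM3, 261 in EM2, 183 in EM1, 681 in the parental tumour, 809.6 in Clone E and 35.8 in Clone M. Tmprss11e, a serine protease of the epithelial surface, had 115 CPM in EM3, 169 in EM2, 67.8 in EM1, 192 in the parental tumour, 337 in Clone E and 9.95 in Clone M. Sfn and Tmprss11e were 4.22-fold and 3.90-fold below EM1, which itself was the lowest of the others. At 2000 UMIs per cell, Sfn was seen in 5.35% of Clone M tumour cells and 20.5% to 51.5% of the others, and in 3.42% of macrophages, 5.78% of granulocytes and 7.30% of T and NK cells of the Clone M library. The Clone M share was thus within the range of these host cells.

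Fibronectin and its receptor were low. Fn1, fibronectin itself, had 12669 CPM in EM3, 15142 in EM2, 12669 in EM1, 10239.6 in the parental tumour, 14289 in Clone E and 5029 in Clone M. Itga5, the alpha subunit of the fibronectin receptor, had 160.0 CPM in EM3, 220.4 in EM2, 194 in EM1, 217 in the parental tumour, 218 in Clone E and 67.6 in Clone M. Itgb1, its beta subunit, had 1169.7 CPM in EM3, 1061 in EM2, 1009 in EM1, 1020.2 in the parental tumour, 1402 in Clone E and 689.8 in Clone M and was not 2-fold lower. Clone M was the lowest of the 6 tumours for all 3 genes. Tns4, a tensin of focal adhesions, reached 319 CPM in Clone M against 717 to 1369 in the others. Lypd3, a GPI-anchored surface protein of squamous epithelia, reached 16.3 CPM in Clone M against 51.2 to 387 in the others.

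Notum, which inactivates Wnt proteins by removing their lipid, had 75.6 CPM in EM3, 121 in EM2, 59.7 in EM1, 75.9 in the parental tumour, 172 in Clone E and 16.3 in Clone M. Hspa1b, an inducible Hsp70 chaperone, had 709.5 CPM in EM3, 759.7 in EM2, 713 in EM1, 1425 in the parental tumour, 1201 in Clone E and 286 in Clone M. Clone M was the lowest tumour for both. Zdhhc2, a palmitoyl transferase, reached 13.8 CPM in Clone M against 56.3 to 119 in the others. Plcg2, a phospholipase C, reached 82.5 CPM in Clone M against 188 to 477 in the others. Plp2, a membrane protein encoded on chromosome X, and Dennd3 were also in the set.

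Promoter letters were read for the genes highest in Clone M, because Fos, Nr4a1 and Crem, described below, are textbook targets of cAMP signalling through the cAMP response element. Of these, Fos was not high in Clone M, and cAMP signalling was not measured. The 250 bases before the RefSeq starts (GRCm38.p6) were searched on both strands for the full element TGACGTCA and for its shorter form TGACG, which overlaps the full element. The full element was found for 3 of 21 of the highest genes that have such a window (Mcam, Arl4d and Has1), for 2 of 17 immediate early genes (Dusp1 and Btg2) and for 478 of 27025 genes in all (1.77%). The shorter form was found for 9 of 21 and 9 of 17 against 19.8% of all genes. The 27025 genes were not limited to those expressed in tumour cells, and a match in any window of a gene counted. The shares are thus not of like sets, and no enrichment was tested. Dusp1, which holds the full element, was lowest in Clone M, and Nr4a1 holds only the shorter form. Arl4d and Has1 are shown for the full element, and Nr4a1, chosen after its values were seen, for 4 copies of the shorter form, with matches in capitals on either strand. A match is a description of letters, and no binding was measured.
Arl4d, chr11:101665291-101665540, plus strand: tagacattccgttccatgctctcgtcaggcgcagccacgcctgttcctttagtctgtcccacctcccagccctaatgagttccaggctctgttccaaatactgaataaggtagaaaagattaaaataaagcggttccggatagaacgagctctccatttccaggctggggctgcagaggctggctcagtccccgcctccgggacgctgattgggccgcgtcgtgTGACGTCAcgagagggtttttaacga
Has1, chr17:17855189-17855438, minus strand: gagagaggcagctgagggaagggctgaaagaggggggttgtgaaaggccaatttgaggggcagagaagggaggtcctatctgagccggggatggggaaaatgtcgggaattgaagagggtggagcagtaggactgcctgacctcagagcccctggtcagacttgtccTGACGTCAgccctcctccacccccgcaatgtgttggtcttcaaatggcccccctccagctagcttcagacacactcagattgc
Nr4a1, chr15:101266596-101266845, plus strand: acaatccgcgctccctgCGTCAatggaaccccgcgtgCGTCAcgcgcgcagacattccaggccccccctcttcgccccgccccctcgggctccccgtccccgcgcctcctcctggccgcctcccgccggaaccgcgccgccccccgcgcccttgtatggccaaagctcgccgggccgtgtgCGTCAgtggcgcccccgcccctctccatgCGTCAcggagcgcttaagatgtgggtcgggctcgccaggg
The matches begin 26 bases before the start in Arl4d and 83 in Has1, and 233, 213, 69 and 40 bases before it in Nr4a1.

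Epithelial adhesion genes were low in Clone M and in EM3. Of 22 tested epithelial adhesion genes and keratins, 14 were at least 2-fold below the median of the other 5 tumours and none above, against 2.18% below and 1.63% above among all 5822 genes with at least 50 CPM in any tumour. The list's median log2 ratio was -1.30, against 0.07 over all genes. Without Clone E among the others 7 genes were 2-fold below, and with EM2 and EM3 alone 2 were. In these settings the 50 CPM minimum was read from the tumours kept, so fewer than 22 genes may have been tested. The share among all genes was not computed for them. Clone M was the lowest of 6 for 8 of the 22, where 17.6% of all genes were lowest in Clone M.

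Dsp, the plaque protein of desmosomes, had 11.3 CPM in EM3, 128 in EM2, 75.7 in EM1, 93.2 in the parental tumour, 259.6 in Clone E and 5.38 in Clone M. Cdh1, E-cadherin, had 3.04 CPM in EM3, 23.3 in EM2, 25.7 in EM1, 51.6 in the parental tumour, 751 in Clone E and 4.09 in Clone M. Epcam, a surface adhesion protein of epithelia, had 4.79 CPM in EM3, 119 in EM2, 140.0 in EM1, 252 in the parental tumour, 1612 in Clone E and 49.7 in Clone M. Clone M was lowest for Dsp, while EM3 was lower still for Cdh1 and Epcam. The simple keratins lay closer to the other tumours, with Krt8 at 1194 CPM in Clone M against 1508 to 3138 in the others and Krt18 at 604 CPM in Clone M against 593 to 1074 in the others. Cldn4, a tight junction claudin, was 105 CPM in Clone M against 13.1 to 4669 in the others, with EM2 and EM3 below Clone M. Tjp1, a tight junction scaffold, was the member highest in Clone M, at 233 CPM against 128 to 179. Among 10 tested epithelial regulators, 1 was at least 2-fold below the median (2.18% of all genes), Esrp1, a splicing factor. Esrp1 was at 0.361 CPM in Clone M and passed the 50 CPM minimum only through Clone E (241 CPM). The parental tumour held 33.3 CPM, EM1 17.8, EM2 1.17 and EM3 0.245, so EM3 was below Clone M. Clone M was the highest tumour for 2 of the 10 regulators and the lowest for 3. Klf4 was among the highest, at 1059 CPM against 548 to 759. The median log2 ratio of the regulators was -0.45, against 0.07 over all genes.

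Few Clone M cells held several epithelial junction genes at once. With cells thinned to 5000 UMIs, 6.93% of Clone M tumour cells (interval 6.19 to 7.73) had UMIs of at least 2 of Cdh1, Epcam, Cldn3, Cldn4, Cldn7 and Dsp. The same share was 1.49% in EM3, 24.7% in EM2, 44.3% in the parental tumour, 55.3% in EM1 and 99.2% in Clone E. EM3 was below Clone M and the other 4 tumours above it. At 2000 UMIs, Cdh1 was seen in 0.814% of Clone M tumour cells and 1.09% of macrophages, 0.876% of granulocytes and 16.9% of T and NK cells of the library, so Cdh1 was at or below the level of host cells. Epcam was seen in 7.70% of Clone M tumour cells against 0.564%, 1.23% and 3.02% of these host classes. Cldn4 was seen in 11.0% against 0.451%, 1.40% and 1.76%, so both were above host cells.

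The mesenchymal list had members on both sides. Of 12 tested genes, 1 was at least 2-fold above the median of the others and 2 below, against 1.63% above and 2.18% below among all genes. The median log2 ratio was 0.10, against 0.07 for all genes. Snai1, a repressor of E-cadherin, had 182 CPM in EM3, 144 in EM2, 216 in EM1, 101 in the parental tumour, 119.6 in Clone E and 304 in Clone M. Nt5e, the ectonucleotidase CD73, had 712 CPM in EM3, 734 in EM2, 328 in EM1, 462 in the parental tumour, 444 in Clone E and 162 in Clone M. Snai1 was highest and Nt5e lowest in Clone M, and Fn1, above, was the other low member. Axl, a receptor tyrosine kinase, was highest in Clone M at 1072 CPM in Clone M against 455 to 939.7 in the others. S100a4, a calcium-binding protein of motile cells, was 967 CPM in Clone M against 456 to 3167 in the others, second lowest after Clone E.

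**Figure D2:**
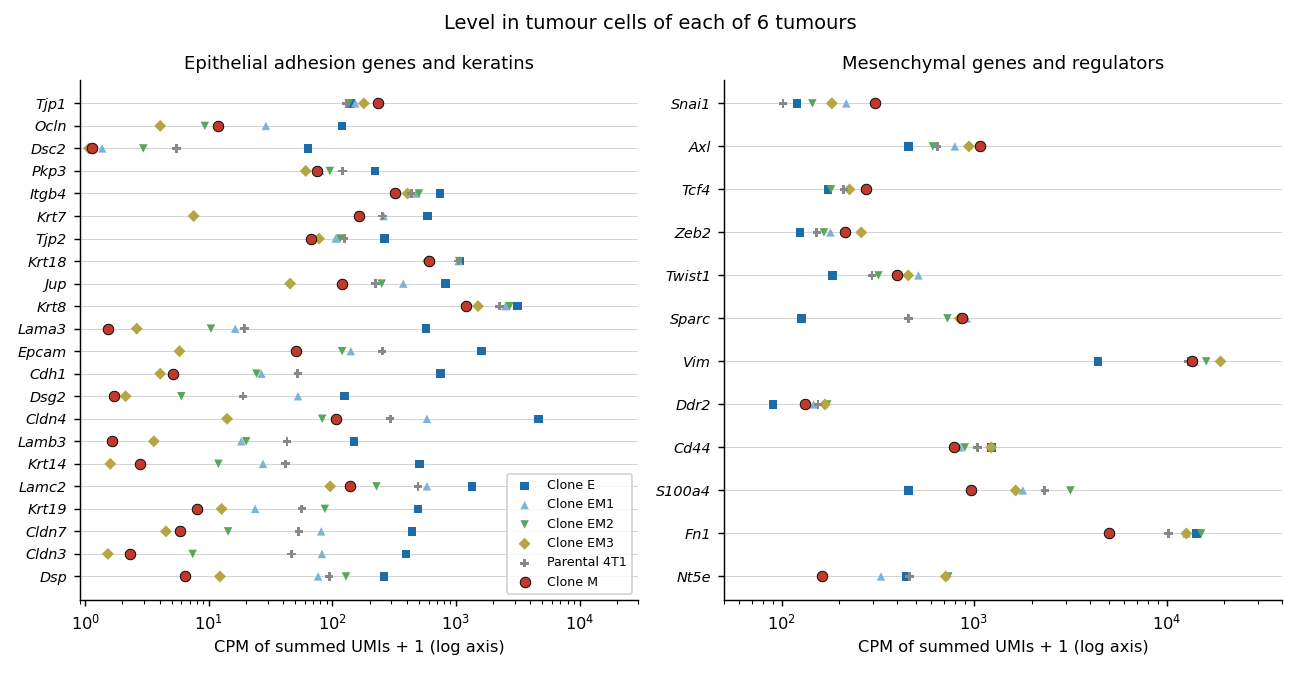
Rows are the tested genes of both lists, ordered by the ratio of Clone M to the median of the other tumours, and points are CPM of summed UMIs + 1 in the tumour cells of each tumour on a log axis. Clone M (red circle) lies to the left for most epithelial genes, next to EM3, while Clone E is the lowest for Vim, Sparc, Axl and S100a4 among the mesenchymal genes.

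Immediate early genes, which are transcribed within minutes of a stimulus, were high in Clone M for some members only. Of 20 tested, 5 were at least 2-fold above the median of the others and none below, against 1.63% above and 2.18% below among all genes. Clone M was the highest tumour for 8 and the lowest for 2, where 28.4% of all genes were highest and 17.6% lowest in Clone M. The list's median log2 ratio was 0.31, against 0.07 for all genes. Nr4a1, an orphan nuclear receptor, had 684 CPM in EM3, 413 in EM2, 545 in EM1, 540.1 in the parental tumour, 129.6 in Clone E and 1332 in Clone M. Fosb, an AP-1 subunit, had 1498 CPM in EM3, 761 in EM2, 1311 in EM1, 843 in the parental tumour, 1945 in Clone E and 2844 in Clone M. Egr1 reached 671 CPM in Clone M against 95.8 to 336 in the others. Egr2, given above, is also among the 5 and passed the 50 CPM minimum only through Clone M. Nr4a1, Fosb and Egr1 were 2.44-fold, 2.16-fold and 2.43-fold above the median of the others. The family members Nr4a2 and Nr4a3 also had their highest level in Clone M. Nr4a2 stood at 950.3 CPM against 98.3 to 737 and Nr4a3 at 273 against 46.7 to 172. Crem, a cAMP-responsive factor, stood at 224 CPM against 48.9 to 141. Nr4a2 was looked up after the values of Nr4a1 had been seen.

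Other early genes were not high. Fos, an AP-1 subunit, was 851 CPM in Clone M against 353 to 1886 in the others. Jun, its partner, was 1294 CPM in Clone M against 729 to 2619.8 in the others. Dusp1, a phosphatase that switches off MAP kinases, was lowest in Clone M, at 223 CPM against 253 to 579.9. In other cells of the Clone M library, set against the same class of the other tumours, 4 of 19 tested early genes were 2-fold above the median in T and NK cells, where 2.27% of all genes were. The counts were 1 of 20 in macrophages (0.37% of all genes), 1 of 20 in fibroblasts (0.674%) and 0 of 19 in granulocytes (0.695%). In the same order of classes, the list's median log2 ratios were 0.27, -0.01, 0.02 and 0.22. The all-gene medians of these classes were -0.05, 0.09, -0.03 and 0.07. Clone M was the highest for 9 of 19 early genes in T and NK cells (14.9% of all genes) and for 7 of 19 in granulocytes (22.95%), for 2 of 20 in fibroblasts (6.78%) and for 2 of 20 in macrophages (27.6%). The list's median was thus above that of all genes in T and NK cells, granulocytes, fibroblasts and tumour cells of the library, and below it in macrophages. The part of a difference between libraries in the tumour values was not tested.

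Among the proteases, 4 matrix metalloproteinases were low. Of 18 tested proteases and inhibitors, these 4 were at least 2-fold below the median and 1, Ctla2a, above, against 1.63% above and 2.18% below among all genes. The list's median log2 ratio was 0.14, above the 0.07 of all genes. Mmp13, a collagenase, had 6.86 CPM in EM3, 62.6 in EM2, 309 in EM1, 111 in the parental tumour, 186 in Clone E and 7.01 in Clone M. Mmp12, the macrophage elastase, was 5.95 CPM in Clone M against 18.1 to 114 in the others, Mmp10 14.1 CPM in Clone M against 12.1 to 104 in the others and Mmp3 60.7 CPM in Clone M against 31.5 to 323 in the others. EM3 was lower than Clone M for Mmp13, Mmp10 and Mmp3, and Clone M was the lowest for Mmp12. The 4 genes lie close together on chromosome 9.

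Of 22 tested matrix genes, none was 2-fold above the median and 1, Tnc, was below (against 1.63% above and 2.18% below among all genes), with tenascin C at 17.4 CPM in Clone M against 40.0 to 299.7 in the others. Among 14 integrins and adhesion adaptors, 2 were 2-fold above the median, against 1.63% of all genes, and 1 below, against 2.18%. Above were Itgb5 (282 CPM in Clone M against 101 to 253 in the others) and Itga7 (54.1 CPM in Clone M against 9.46 to 28.2 in the others), and below was Itga5. Itga7 passed the 50 CPM minimum only through Clone M. Clone M and EM1 shared high Ccn2, a matricellular protein and YAP target, with 31.3 CPM in EM3, 22.8 in EM2, 168 in EM1, 23.3 in the parental tumour, 75.7 in Clone E and 235 in Clone M. Ccn4, a Wnt-induced relative of Ccn2, showed the same pair, at 99.3 in Clone M, 85.2 in EM1 and at most 26.2 elsewhere. Pdgfrb, a PDGF receptor of stromal cells, was 37.0 CPM in Clone M, 52.5 in EM1 and 0.517 to 1.20 elsewhere. Fibroblasts of the library held 476 CPM of Pdgfrb. The fibroblast collagen Col1a2 was at 24.3 CPM in Clone M tumour cells against 12.9 to 80.3, and the part of fibroblast RNA was not tested.

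The TGF-beta feedback inhibitors Skil and Smad7 had their highest levels in Clone M. Of 28 tested TGF-beta and BMP genes, Clone M was highest for 12 and lowest for 5, against 28.4% and 17.6% of all genes, while 1 was 2-fold above the median (1.63% of all genes) and 1 below (2.18%). Skil, which blocks Smad complexes, had 429.9 CPM in EM3, 343 in EM2, 455 in EM1, 418 in the parental tumour, 521 in Clone E and 960.3 in Clone M. Smad7, the inhibitory Smad, reached 589 CPM in Clone M against 229 to 330.4 in the others, 1.84-fold above the median. Tgfbi, a TGF-beta-induced matrix protein, was 9.87 CPM in Clone M against 18.4 to 51.3 in the others, the lowest of the 6. It is the gene counted below the median and passed the 50 CPM minimum only through Clone E. The list's median log2 ratio was 0.17, against 0.07 for all genes.

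Chemokine and cytokine genes lay on both sides. Of 31 tested, 2 were 2-fold above the median of the others and 5 below, against 1.63% above and 2.18% below among all genes. Tslp, an alarmin of epithelial cells, had 463 CPM in EM3, 126 in EM2, 513 in EM1, 90.3 in the parental tumour, 91.3 in Clone E and 629 in Clone M. Il11, an IL-6 family cytokine, was 183 CPM in Clone M against 51.5 to 306 in the others. Clone M had the most Tslp, followed by EM1 and EM3, and the parental tumour had the most Il11. Ccl2, which attracts monocytes, was 106 CPM in Clone M, 197 in the parental tumour and 72.2 in EM1, with 3.66 to 10.6 in the other 3. Fibroblasts of the Clone M library held 3096 CPM of Ccl2. Below the median were Csf2, Csf3, Cxcl1, Cxcl2 and Cx3cl1, of which Csf2, Csf3 and Cxcl1 had their lowest level of the 6 tumours in Clone M. Csf2 passed the 50 CPM minimum only through Clone E (104 CPM), with 9.90 to 41.3 CPM in the remaining others and 2.53 in Clone M.

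MHC class II genes were low in Clone M and in the parental tumour alone. Cd74, the invariant chain, had 528 CPM in EM3, 647 in EM2, 1396 in EM1, 76.4 in the parental tumour, 1148 in Clone E and 67.8 in Clone M. H2-Aa, a class II alpha chain, had 191 CPM in EM3, 273 in EM2, 703 in EM1, 29.5 in the parental tumour, 604 in Clone E and 36.3 in Clone M. H2-Eb1 and H2-Ab1 showed the same split, with 24.4 CPM of H2-Eb1 in Clone M. These were the 4 genes at least 2-fold lower in Clone M and the parental tumour than in each of the other 4, of 3976 tested. Macrophages of the Clone M library held 6101 CPM of Cd74 and dendritic cells 28618, and the other 13 macrophage markers summed to more in Clone M (243 CPM) and the parental tumour (228) than in EM1 (123) and EM2 (162), but to less than in EM3 (465) and Clone E (696). The part of macrophage and dendritic cell RNA in the class II values was not tested. Of 24 tested MHC class I and interferon-gamma genes, 2 were 2-fold below the median, against 2.18% of all genes, namely Nlrc5 (46.6 CPM in Clone M against 80.9 to 279 in the others) and Tap1 (39.2 CPM in Clone M against 29.4 to 136 in the others).

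The lists of metabolism, stress and division each had at most 1 tested gene 2-fold from the median, against 1.63% above and 2.18% below among all genes. Car9, a hypoxia-induced carbonic anhydrase, was the member below among 18 glycolysis and hypoxia genes, at 65.6 CPM in Clone M against 72.2 to 186 in the others. Hmox1, heme oxygenase, was the one below among 15 oxidative stress genes, at 223 CPM in Clone M against 313 to 898 in the others, and Msmo1 among 16 sterol and fatty acid genes, at 22.2 CPM in Clone M against 43.1 to 71.3 in the others. Ube2c, a mitotic ubiquitin enzyme, was the one above among 9 G2 and M phase genes, at 97.6 CPM in Clone M against 25.6 to 96.4 in the others, nearly equal to the parental tumour and EM2. None of 21 amino acid and unfolded protein stress genes passed 2-fold, and their median log2 ratio was -0.33, against 0.07 for all genes.

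By the number of genes 2-fold apart EM1 was the tumour closest to Clone M, by the median absolute log2 ratio the parental tumour (0.25, with 0.26 for EM1, 0.28 for EM3 and 0.31 for EM2), and by both Clone E was the farthest (0.45). Against EM1, 66 of 5230 genes were at least 2-fold higher in Clone M (1.26%) and 132 lower (2.52%). Against the parental tumour 121 of 5156 were higher (2.35%) and 108 lower (2.09%), and against EM3 113 of 5189 (2.18%) and 123 (2.37%). Against EM2 149 of 5273 were higher (2.83%) and 170 lower (3.22%). Against Clone E 362 of 5532 were higher (6.54%) and 446 lower (8.06%), and with TMM scaling 1216 in place of 808 genes were 2-fold apart. All 5 comparisons share the Clone M tumour, and Clone E had the fewest cells. Against EM1 the lowest genes included Rbpms, an RNA-binding protein, at 12.4 CPM in Clone M and 285 in EM1, and Sod3, extracellular superoxide dismutase, at 21.1 and 249.8. Besides the class II genes, those low in Clone M together with 1 other tumour were Adam8 and Atp2c2 with EM1, and Mmp13, Dsp, St14, Epcam, Neurl3 and Fam167a with EM3.

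Genes of whole chromosomes were high or low together in Clone M tumour cells. Among genes with at least 20 CPM in all 6 tumours, the 135 genes of chromosome X had a median log2 ratio of -0.49 to the median of the other tumours, against 0.07 over all 6336 genes. Of these, 125 were below the median (92.6%, against 41.2% of all genes) and 111 were lowest in Clone M (82.2%, against 1078 of all 6336 genes). Chromosome 8 had a median of -0.30, with 334 of 379 genes below. Zdhhc2, Plcg2, Itgb1, Nlrc5, Hmox1 and Msmo1, given above as low in Clone M, are genes of chromosome 8. Chromosome 14 had a median of 0.36 and chromosome 7 of 0.34, with 132 of 214 and 281 of 439 genes highest in Clone M, against 1834 of all 6336 (28.9%). Chromosome 2 had 0.25 and chromosome 17 had -0.18. The other 5 tumours had chromosome X medians of -0.01 to 0.14, each set against its own 5 others. On other chromosomes they had shifts of a size like those of Clone M on chromosomes 8 and 7, namely EM2 -0.35 on chromosome 12 and -0.31 on 18, EM1 -0.33 on 10, Clone E -0.32 on 2, -0.30 on 16 and -0.29 on 1, and EM3 -0.29 on 19.

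In host cells of the same library the medians lay nearer to those of all genes. Macrophages of the Clone M tumour, set against macrophages of the other tumours, had a median of 0.05 on chromosome X, 0.07 on chromosome 8, 0.12 on chromosome 7 and 0.11 on chromosome 14, around an all-gene median of 0.10. Granulocytes had -0.11 on chromosome X, -0.05 on chromosome 8, 0.11 on chromosome 7 and 0.17 on chromosome 14, around 0.07. T and NK cells had -0.13, -0.09, -0.0005 and -0.01 on these chromosomes, around -0.05. Over the settings tried, the median in tumour cells kept its sign and ranged from -0.64 to -0.49 on chromosome X, from -0.37 to -0.30 on chromosome 8, from 0.26 to 0.37 on chromosome 7 and from 0.30 to 0.42 on chromosome 14. DNA copy number and X inactivation were not measured. Of the 50 genes with the lowest ratio to the lowest other tumour, 10 lie on chromosome X, against 1.92% of the genes tested, among them Plp2, with 574 CPM in EM3, 526 in EM2, 542 in EM1, 529.5 in the parental tumour, 524 in Clone E and 209 in Clone M.

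**Figure D3:**
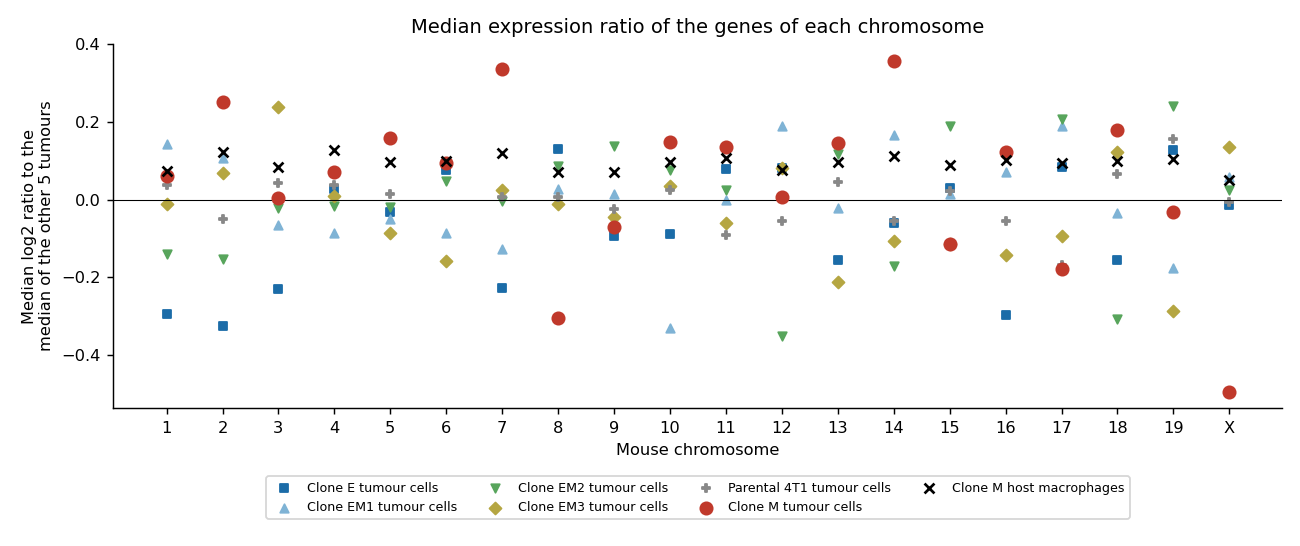
Points give the median, over the genes of a chromosome with at least 20 CPM in all 6 tumours, of the log2 ratio of a tumour to the median of the other 5, on a linear axis. Clone M tumour cells (large red circles) lie at -0.49 on chromosome X and 0.36 on chromosome 14, while macrophages of the same library (black crosses, genes at that level in macrophages) stay between 0.05 and 0.13.

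The shift of chromosome X was also seen cell by cell, with overlap between tumours. The median Clone M tumour cell drew 1.38% of its UMIs from the chromosome X genes, among UMIs of genes counted above, with 90% of cells between 1.07% and 1.81%. The medians of the other tumours were 1.78% in EM2 to 1.97% in the parental tumour. At or below the Clone M median lay 4.97% of EM3 cells, 5.88% of EM2, 10.1% of parental, 10.8% of Clone E and 23.4% of EM1 cells. EM1 held the largest share of such cells. Median shares per cell were 4.80% in Clone M against 5.83% to 6.88% elsewhere on chromosome 8 and 7.36% against 5.21% to 6.05% on chromosome 7. They were closer on chromosome 14, at 3.88% against 2.94% to 3.64%, and on chromosome 2, at 9.70% against 6.08% to 9.38%. On chromosome 14 the quartiles were 3.60% and 4.15% in Clone M and 3.31% and 3.94% in EM1. For the 24 genes highest in Clone M, the summed UMIs per 10000 had a median of 46.2 in Clone M cells and 7.73 to 14.8 elsewhere, and at least 99.1% of cells of each other tumour lay at or below the Clone M median. That sum was built from genes chosen for their difference and is a description only.

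**Figure D4:**
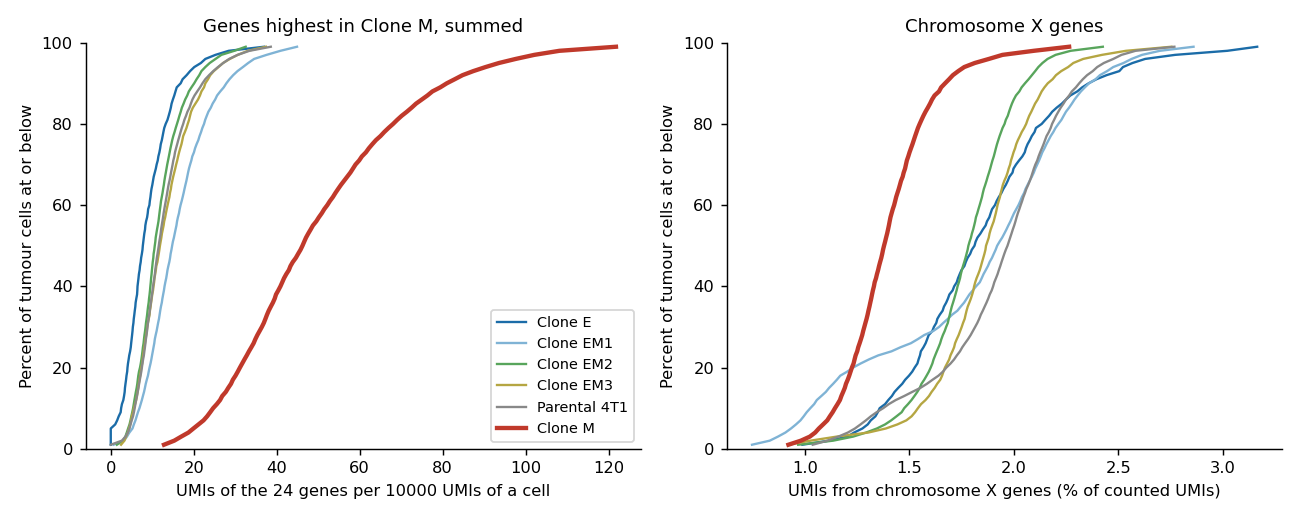
Curves give the percent of tumour cells at or below the value on the x axis, for each tumour. Left, summed UMIs of the 24 genes highest in Clone M per 10000 UMIs of a cell; right, the percent of counted UMIs that come from chromosome X genes, with medians of 1.38% in Clone M and 1.78% to 1.97% in the others.

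Clone M tumour cells also differed among themselves. The spread of a gene was measured by its residual variance, the variance of its counts over cells after scaling by what depth and sampling noise give, which is about 1 for a gene with no further spread. Of 4849 genes with at least 50 CPM, 623 had a residual variance of at least 2 (12.8%), and 108 when cells were thinned to 2000 UMIs. The other tumours had 489 to 682 such genes among their own. The widest spread was that of Fos (78.4, others 41.1 to 82.2), Slpi, a secreted protease inhibitor (63.4, 13.4 to 82.9), Lcn2, lipocalin 2 (53.7, 12.5 to 39.1), Hspa1b (47.4, 29.5 to 70.5) and Jun (46.2, 29.7 to 63.3). These genes spread widely in every tumour. All 20 tested immediate early genes and all 8 tested G2 and M phase genes reached 2, against 12.8% of all genes. Every list with tested genes lay above that share, the lowest being the sterol and fatty acid genes at 25%. The class I and interferon-gamma list, with 5 of 17 (29.4%), was the next lowest.

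Some genes spread more in Clone M than in the other tumours. Itih2 had a residual variance of 15.5 against 0.827 to 7.14, and Ctla2a of 19.2 against 2.67 to 7.65. Mgp, matrix Gla protein, had 34.9 in Clone M, 34.6 in EM1 and 6.32 to 15.1 elsewhere. Itih2 and Ctla2a also had higher levels in Clone M, which raises the variance that can be seen. Gpnmb and Cavin2 had 3.21 and 3.56, past the limit of 2, and Vim reached 14.3.

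**Figure D5:**
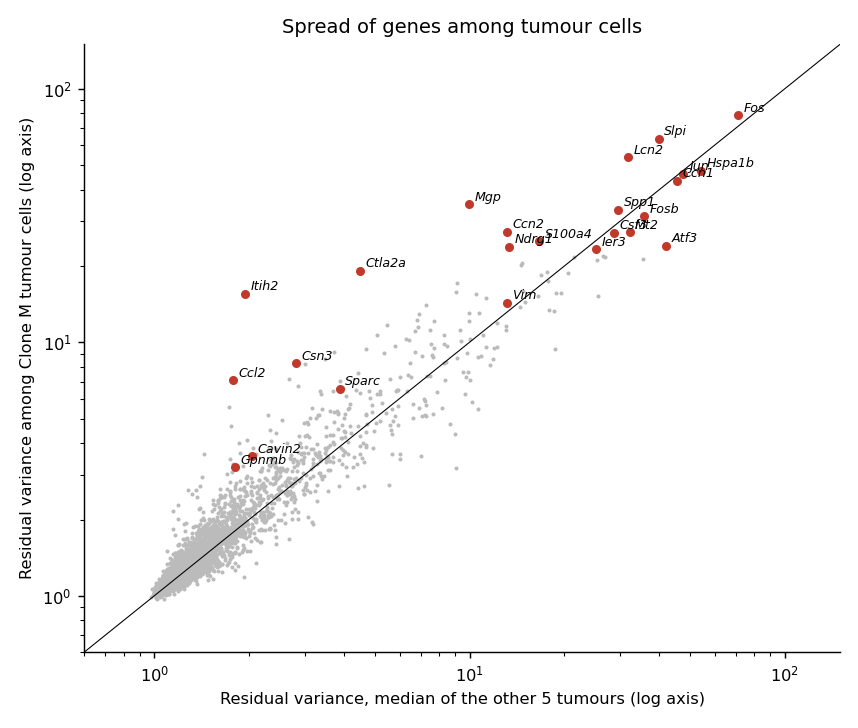
Each point is a gene with at least 50 CPM in Clone M, with its residual variance among Clone M tumour cells on the y axis and the median of the other 5 tumours on the x axis, both on log axes; the line marks equality. Itih2 (15.5), Ctla2a (19.2) and Mgp (34.9) lie above it. Fos and Slpi have the widest spread in Clone M, with medians of 71.1 and 39.7 in the other tumours.

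Within Clone M, Ctla2a went with Mgp and Sparc and against S100a4. Across 4593 cells Pearson's r was 0.58 between Ctla2a and Mgp, 0.48 between Ctla2a and Sparc and 0.43 between Ctla2a and Itih2. It was -0.39 between Ctla2a and S100a4, 0.46 between S100a4 and Vim and 0.47 between S100a4 and Krt8. In the other tumours r ranged from 0.05 to 0.37 for Ctla2a and Mgp and from -0.11 to 0.10 for Ctla2a and S100a4, but from 0.36 to 0.50 for S100a4 and Vim. With cells thinned to 5000 UMIs the values for Ctla2a with Mgp and with S100a4 were 0.51 and -0.37 in Clone M and 0.02 to 0.31 and -0.13 to 0.03 in the others. The cells of a tumour share 1 library, and r rises with the level of sparse genes, so these values are descriptions. Vim and Sparc, both counted as mesenchymal, had an r of -0.05 in Clone M and 0.06 to 0.27 elsewhere. Gpnmb had an r of 0.00 with Cavin2 and -0.01 with Csn3.

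Clusters of the 4593 cells, built without the genes highest or lowest in Clone M, the markers and the epithelial and mesenchymal lists, showed where those genes were high within the clone. There were 8 clusters of 296 to 937 cells. Gpnmb ranged over 103 to 251 CPM and Cavin2 over 131 to 291 CPM, so every cluster was above the level of each other tumour for both. The same held for Mcam (136 to 295 CPM) and Fosl2 (525 to 885 CPM). Itih2 ranged over 6.22 to 434 CPM and Ctla2a over 247 to 1599 CPM, and the clusters with the least Itih2, the cluster led by Procr and Areg and the one led by Top2a, had 6.22 and 18.8 CPM. Those 2 clusters had the highest S100a4, at 1720.5 and 1554 CPM against 249.9 to 986 in the rest. Sfn stayed at 16.9 to 49.2 CPM and Epcam at 27.6 to 61.9 CPM, and Snai1 ranged over 157 to 488 CPM. The median share of chromosome X UMIs was 1.35% to 1.44% in all 8. One cluster was led by Igf2, Dcn and H2-Eb1, genes of stromal and antigen-presenting cells, and the part of other cells in it was not tested. One cluster of 296 cells was shallow, with a median of 6225 UMIs and 2.06% mitochondrial UMIs.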

How the data were processed

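Per the file headers and values, each library was deposited as a gene-by-cell table of raw counts of UMIs, and a further table holds the authors' UMI and gene counts per cell, mitochondrial percent and cell class. The cell class is the authors' annotation, a label with no unit. Per the submitters' processing notes, Cell Ranger and the build mm10 were used; cell filters are not given in the sources used here. The deposited sums and percents were recomputed within 1e-06.

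Doublets were called with simulated pairs (2 per cell, 2000 variable genes, 30 components); the gene scaling and shared limit were set after a first version had called too few. Counts of the remaining tumour cells were summed per tumour and scaled to CPM. A gene was called at a 2-fold ratio of CPM + 10, with a minimum of 50 CPM in Clone M (higher) or in all 5 others (lower). Intervals are exact Poisson or Clopper-Pearson. Residual variance used a negative binomial with theta 100. Clusters used the Leiden algorithm (leidenalg 0.10.2, resolution 0.6). Positions come from GENCODE vM21 on GRCm38, the same assembly. TMM factors came from edgeR 4.0.16. Calls were tested on simulated data with 200 changed genes, part of them changed by less than the 2-fold limit. These data held counting noise only, so they do not cover differences between tumours, mice or captures. Named genes are the markers, the 20 most extreme on either side, up to 5 per list, the 10 most extreme against the nearest tumour and the 20 of widest spread; a few further list members, and Nr4a2, were added after their values were seen. The members and lists were chosen with earlier results of these data known. 1 of the genes called lower is not reported here.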

Additional observations from a re-analysis of the deposited data

How the results depend on the processing

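No paired analysis was possible because each group has 1 tumour. The 24 higher and 13 lower genes kept their sign under all 13 settings, though some left the 2-fold limit, as given with them. Several of these settings could not change a sign. Another CPM minimum leaves a ratio as it is, and a smaller value added to CPM keeps the order of the tumours. Leaving out tumours only takes a subset of those that Clone M already exceeded or fell below. Ratios of single genes were set against the counting error of the Clone M count alone, which leaves out that of the other tumour. They moved beyond it most often with centring, in 162 of 170, then with thinning to 2000 UMIs, in 137, and with TMM, in 128. With a minimum of 100 CPM in place of 50, which tests fewer genes, 8 genes were lower, and the genes 2-fold apart were 525 for Clone E, 124 for EM1, 154 for EM3 and 150 for the parental tumour. With edgeR's TMM factors those against Clone E were 1216 in place of 808. Without the parental tumour 20 genes were lower. Without Clone E 7 of the epithelial genes tested in that setting were 2-fold below the median. EM2 and EM3, whose cell barcodes end in the same 8 bases as those of Clone M, were chosen after seeing the data. With them alone as other tumours, 66 genes were higher, 61 lower and 2 of the epithelial genes tested in that setting below. In that setting 82.7% of chromosome 7 genes were above the median, in place of 87.7%. Centring on the median gave 82.9% for chromosome 7 and 83.6% for chromosome 14, in place of 88.8%. A limit of 1.5 gave 1199 varying genes and thinning to 2000 UMIs gave 108, with 17 of the 20 widest shared. At 5000 UMIs per cell the shares were 41.3% for Gpnmb, 49.2% for Cavin2, 89.5% for Sparc and 16.8% for Cldn4, against 22.6%, 27.1%, 71.0% and 11.0% at 2000, and Cldn4 was 10.1% with doublet calls ignored. The alternative with tumours of the same capture gave no value. Captures were inferred from shared barcodes, and by these no other tumour was grouped with Clone M. Settings for the lists and chromosomes were added after seeing the data. Apart from construction, the causes were not tested.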

Other observations

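Along the genome, in windows of 20 neighbouring genes, the lowest median log2 ratio of Clone M to the other tumours was -0.58, on chromosome 9 from 35046576 to 44234049 (GRCm38), where 14 of 20 genes were lowest in Clone M. Mcam, one of the 24 genes highest in Clone M, lies at the end of that window. The next window, from 44292440, had 1 gene lowest and 7 highest in Clone M. Among all genes so placed, 1078 of 6336 were lowest and 1834 highest in Clone M. The highest window was on chromosome 7 from 24969752 to 27477364, with a median of 0.52 and 14 of 20 genes highest in Clone M, and it holds Axl and Tgfb1. No copy number was measured.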
